A study of Homo sapiens with 8 samples.

Results

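DAC-resistant THP-1 cells were compared with parental THP-1 cells in the absence of drug. THP-1 is an established line of human monocytic leukemia. DAC (decitabine), a nucleoside drug, is built into DNA and traps the DNA methyltransferases, so that methylation is lost as cells divide. The genes described are those with at least 1 FPKM (reads scaled to the length of the gene and the depth of the library) in at least 2 of the 4 libraries made from these cells after 6 days with the DMSO vehicle. They numbered 13442 of the 60664 genes of the table, and 12960 of them were autosomal and are described here. The series held 8 libraries in 4 groups of 2, parental and DAC-resistant cells (both labelled WT) that had been kept for 6 days in DMSO or in DAC at 1 µM, and the 4 libraries with DAC served to look at the same difference between the lines in samples that the selection had not used. The resistant line had been made from the parental one by pulses of DAC at a dose that killed most cells, each followed by regrowth in drug-free medium, over 3 months. It is 1 line, and whether it descends from a single cell was not stated in the sources used here. The replicates are labelled biological, but separate selections of resistant cells are not among them, so that the spread below is the spread between cultures of 1 resistant and 1 parental line.

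In myeloid cells DNA methylation at CpG-rich promoters holds germline genes and some lineage genes silent, and double-stranded RNA from derepressed repeats can be sensed by RIG-I-like receptors, which leads through interferon to the interferon-stimulated genes. DAC needs a nucleoside transporter to enter the cell and deoxycytidine kinase (DCK) to become active, and it is inactivated by cytidine deaminase (CDA). Monocytic leukemia cells carry part of the surface receptors, granule proteins and Toll-like receptors of monocytes.

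The 4 DMSO libraries held between 31468438 and 33088194 reads on genes, as recovered from the deposited values, and the 4 DAC libraries between 28717837 and 33416779. Mitochondrial genes took 8.34% and 8.67% of the reads in parental cells and 6.56% and 6.71% in DAC-resistant cells. Of the 4 DAC-resistant libraries 3 stood apart by immunoglobulin genes: IGKC, the kappa light chain constant gene, was at 27.6 FPKM in DAC-resistant replicate 2 and at 0.727 FPKM in replicate 1, beside 0.603 and 1.07 FPKM in parental cells. IGHG1 went the same way, with 5.64 and 0.172 FPKM in DAC-resistant replicates 2 and 1. With DAC both DAC-resistant libraries were high, at 48.3 and 28.5 FPKM for IGKC, beside 1.25 and 1.32 FPKM in parental cells with DAC, and at 12.1 and 5.497 FPKM for IGHG1. IGKC was not called and IGHG1 was under the minimum, but the variable segments IGLV2-8 (parental cells had 0 and 0.128 FPKM and DAC-resistant cells 5.02 and 3.73 FPKM) and IGLV3-9 (parental cells had 3.35 and 3.08 FPKM and DAC-resistant cells 11.3 and 9.598 FPKM) are among the raised genes. Without DAC-resistant DMSO replicate 2, which leaves 1 library in that group, the sets of called genes were not the same. The median difference over all autosomal genes was then 0.04, beside 0.03 with it. The difference between the lines with DAC rests on 2 resistant libraries that both hold these reads, and their part in the results was not tested. Of 9 monocyte markers, CD68 was low in both lines, with 0.642 and 0.366 FPKM in parental and 0.718 and 1.35 FPKM in DAC-resistant cells. CD14 was low in both as well, with 1.45 and 1.58 FPKM in parental and 0.7497 and 0.989 FPKM in DAC-resistant cells. FCER1G, the common gamma chain of Fc receptors, was high in all 4 libraries (71.0 and 77.8 FPKM in parental, 82.0 and 78.5 FPKM in DAC-resistant cells). The myeloid factor SPI1 (PU.1) was also high, at 102 and 102 FPKM in parental and 72.4 and 67.4 FPKM in DAC-resistant cells.

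A gene was called at an unadjusted p of at most 0.01 in limma and a difference of at least 1 on the log2(FPKM + 1) scale, on which changes of genes near or below 1 FPKM are understated. Of the autosomal genes, 633 (4.88%) were raised and 611 (4.71%) were lowered in DAC-resistant cells. Each of these 1244 also had a Benjamini-Hochberg adjusted p under 0.05, and its 2 libraries of one line did not overlap those of the other, which was so for 43.9% of all autosomal genes in the upward and 37.5% in the downward direction. For a single gene the smallest two-sided p of an exact permutation test over these 4 libraries is 0.333. The p-values of limma can be smaller, as they rest on a model of the variance fitted over all 8 libraries. Among the raised genes 484 were protein-coding and 82 were lncRNAs, and among the lowered genes these were 405 and 131. Large changes were more often upward: 126 raised and 72 lowered genes went past 2 on the log2 scale, and 37 and 10 went past 3. The median over all autosomal genes was 0.03, and it was 0.11 with TPM, 0.0019 with quantile and -0.04 with upper-quartile scaling. List medians moved along with it: of those printed below, the medians for HLA class I, DNA methylation enzymes, p53 targets, glycolysis, the respiratory chain, ribosomal proteins, DNA replication and mitosis change by more than 1.5 times under at least 1 of these scalings, without a change of sign. Counts of called members in the gene lists below are to be read against these shares of 4.88% and 4.71%, which a single called gene in a list of 20 comes close to.

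Many of the called genes were close to silent in one line. Of the raised genes, 304 were under 1 FPKM in both parental libraries, and 297 of the lowered genes were so in both DAC-resistant libraries. Such genes passed the minimum through one line alone and had to differ, so their number is a property of the selection and not a result. At the extreme, 55 raised genes were at 0 in both parental libraries and 27 lowered genes were at 0 in both DAC-resistant libraries.

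The 12 largest rises among protein-coding genes were led by CXCL11 (chr4:76033682-76041415, hg38), a chemokine of the interferon response that attracts T cells through CXCR3. In the single libraries parental cells had 0.159 and 0.0556 FPKM and DAC-resistant cells 91.4 and 95.97 FPKM, a difference of 6.42 ± 0.06 (SE), adjusted p = 6.2e-09. CXCL10, its neighbour on the same chromosome arm and a ligand of the same receptor, was also near silent before and among the largest rises, with 1.1004 and 0.814 FPKM in parental and 36.1 and 30.8 FPKM in DAC-resistant cells (4.14 ± 0.09 (SE), adjusted p = 1.9e-07). The aldo-keto reductase AKR1C2 (chr10:4987775-5018031), which reduces steroids and other carbonyl compounds, followed CXCL11 in size: parental cells had 0.586 and 0.628 FPKM and DAC-resistant cells 74.9 and 74.4 FPKM (5.56 ± 0.07 (SE), adjusted p = 1.8e-08). Next came OTP (chr5:77628712-77638713), a homeobox factor of hypothalamic neurons with no known place in monocytes, for which parental cells had 0.0181 and 0.0285 FPKM and DAC-resistant cells 40.1 and 38.3 FPKM (5.30 ± 0.05 (SE), adjusted p = 5.6e-09).

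Several of these genes are otherwise read in germ cells, embryonic cells or other tissues. HORMAD1, a protein of the meiotic chromosome axis, was at 0.314 and 0.178 FPKM in parental and 31.8 and 32.1 FPKM in DAC-resistant cells (4.73 ± 0.06 (SE), adjusted p = 1.9e-08). LIN28B (chr6:104936616-105083332), an embryonic RNA-binding protein that blocks the maturation of let-7 microRNAs, was at 0.0106 and 0.00555 FPKM in parental and 20.3 and 21.5 FPKM in DAC-resistant cells (4.44 ± 0.05 (SE), adjusted p = 1.8e-08). SPARC, a secreted matrix glycoprotein, was at 0.0272 and 0.0284 FPKM in parental and 19.6 and 18.05 FPKM in DAC-resistant cells (4.27 ± 0.05 (SE), adjusted p = 1.5e-08). Both parental libraries were thus under 1 FPKM for each of the 3 genes, and the 2 DAC-resistant libraries lay close together.

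The other members of the group moved from under 1 FPKM to between 20.8 and 38.7 FPKM. GDA, guanine deaminase, was at 0 and 0.00834 FPKM in parental and 30.02 and 29.8 FPKM in DAC-resistant cells, and COL14A1, a collagen associated with fibrils, was at 0.00619 and 0.0227 FPKM in parental and 29.9 and 30.01 FPKM in DAC-resistant cells. For PPP1R3A, a glycogen-targeting subunit of protein phosphatase 1 from muscle, parental cells had 0.7299 and 0.713 FPKM and DAC-resistant cells 37.3 and 38.5 FPKM. DCAF4L1 was at 0.341 and 0.147 FPKM in parental and 37.9 and 38.7 FPKM in DAC-resistant cells, and the alpha-tubulin gene TUBA3E, which has near-identical copies and whose reads are therefore uncertain, was at 0 and 0.0652 FPKM in parental and 20.8 and 21.5 FPKM in DAC-resistant cells. Outside the protein-coding genes, the annotated lncRNA gene NFE4, named after a fetal globin factor, rose most: parental cells had 0.0294 and 0.0308 FPKM and DAC-resistant cells 67.5 and 64.4 FPKM (6.02 ± 0.04 (SE), adjusted p = 5.6e-09).

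The largest falls among protein-coding genes were those of KBTBD11 and DACH1. KBTBD11, a BTB and kelch domain protein, was at 16.3 and 17.1 FPKM in parental cells and at 0 and 0.0144 FPKM in DAC-resistant cells (-4.14 ± 0.09 (SE), adjusted p = 1.9e-07). DACH1 (chr13:71437966-71867204), a transcriptional corepressor, was at 24.8 and 23.5 FPKM in parental and 0.499 and 0.6898 FPKM in DAC-resistant cells (-3.98 ± 0.07 (SE), adjusted p = 7.4e-08). Both were thus well expressed in each parental library and near the limit of detection or under 1 FPKM in each DAC-resistant one.

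The most abundant transcripts to fall were those of COL9A2 and TXNIP. COL9A2 (chr1:40300489-40317813), a chain of cartilage collagen IX, was at 650.4 and 655 FPKM in parental and 76.6 and 73.2 FPKM in DAC-resistant cells (-3.11 ± 0.03 (SE), adjusted p = 5.6e-09). TXNIP (chr1:145992435-145996579), an arrestin-like inhibitor of thioredoxin and of glucose uptake, was at 299 and 300.2 FPKM in parental and 31.5 and 32.1 FPKM in DAC-resistant cells (-3.20 ± 0.03 (SE), adjusted p = 5.6e-09). Its paralog ARRDC4, named here after its values were seen, was at 11.2 and 10.7 FPKM in parental and 1.05 and 1.16 FPKM in DAC-resistant cells (-2.51 ± 0.09 (SE), adjusted p = 1.1e-06). Both are known targets of the glucose-sensing factor MondoA. G0S2, an inhibitor of triglyceride lipase, was at 55.7 and 52.1 FPKM in parental and 2.46 and 2.54 FPKM in DAC-resistant cells (-3.97 ± 0.15 (SE), adjusted p = 1.6e-06).

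Among the other large falls were 2 surface proteins of leukocytes. CD84, a SLAM family receptor, was at 7.93 and 7.96 FPKM in parental and 0.151 and 0.216 FPKM in DAC-resistant cells (-2.92 ± 0.09 (SE), adjusted p = 6.6e-07), and the tetraspan protein gene MS4A14 was at 19.1 and 18.7 FPKM in parental and 1.61 and 1.44 FPKM in DAC-resistant cells. LIN7A, a scaffold protein of cell polarity, was at 39.1 and 36.7 FPKM in parental and 4.16 and 4.07 FPKM in DAC-resistant cells. The remaining 4 of the 12 (PTPRN2, LRRC17, NACC2 and the homeobox gene HMX3) were between 8.706 and 9.496 FPKM in parental cells and between 0.00651 and 0.490 FPKM in DAC-resistant cells. PTPRN2, a receptor-type phosphatase of secretory granules, was the lowest of them in DAC-resistant cells, at 0.00651 and 0.00683 FPKM.

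Promoters of 4 of these genes are shown because they differ in the number of CpG, the sites that DNA methyltransferases act on, and in a motif of interferon-responsive genes. Each is the 250 bases before the annotated start (RefSeq, GRCh38.p14), written from 5′ to 3′ on the strand of the gene, which is the minus strand for all 4. For CXCL10 (chr4:76023498-76023747) capitals mark the match to the core of an interferon-stimulated response element (GAAA, any 2 bases and GAAA again, searched on both strands). For OTP (chr5:77638714-77638963), which rose, and for COL9A2 (chr1:40317287-40317536) and DACH1 (chr13:71867205-71867454), which fell, capitals mark CpG.
CXCL10: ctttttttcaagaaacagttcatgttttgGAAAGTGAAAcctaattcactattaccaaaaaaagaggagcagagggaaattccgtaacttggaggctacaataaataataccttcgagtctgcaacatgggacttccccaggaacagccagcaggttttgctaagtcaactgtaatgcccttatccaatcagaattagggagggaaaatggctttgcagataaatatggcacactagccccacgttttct
OTP: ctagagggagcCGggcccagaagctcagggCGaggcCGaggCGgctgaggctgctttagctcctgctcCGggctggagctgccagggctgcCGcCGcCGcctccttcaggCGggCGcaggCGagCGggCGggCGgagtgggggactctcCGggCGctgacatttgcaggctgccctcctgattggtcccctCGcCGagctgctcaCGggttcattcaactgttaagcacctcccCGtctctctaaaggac
COL9A2: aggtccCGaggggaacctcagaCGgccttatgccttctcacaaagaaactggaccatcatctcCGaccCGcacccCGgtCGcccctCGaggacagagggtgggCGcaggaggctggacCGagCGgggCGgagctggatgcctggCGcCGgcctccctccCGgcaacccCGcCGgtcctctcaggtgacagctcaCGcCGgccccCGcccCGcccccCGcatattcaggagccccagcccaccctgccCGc
DACH1: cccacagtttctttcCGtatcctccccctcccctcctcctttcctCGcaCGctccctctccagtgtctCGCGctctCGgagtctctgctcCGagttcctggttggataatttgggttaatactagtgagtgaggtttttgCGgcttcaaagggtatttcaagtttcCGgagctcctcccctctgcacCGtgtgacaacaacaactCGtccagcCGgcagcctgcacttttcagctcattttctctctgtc
The stretch of CXCL10 holds 3 CpG and 1 match to the motif, which begins 221 bases before the gene. The stretches of OTP and COL9A2 hold 20 and 22 CpG, and that of DACH1 holds 12, so that stretches with 20 or more CpG occur both among the largest rises and among the largest falls.

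Over the protein-coding genes tested, CpG was counted in 300 bases of hg38 around the start of the canonical GENCODE transcript (250 before and 50 after it), and the median was 28. The 484 raised genes had a median of 26 CpG and the 405 lowered genes one of 20. Raised genes that had been under 0.1 FPKM in both parental libraries had a median of 18.5 (56 genes), and lowered genes under 0.1 FPKM in both DAC-resistant libraries had one of 22 (35 genes). Promoters with at most 5 CpG made up 22.5% of the lowered and 9.92% of the raised genes, beside 4.27% of those tested. Genes that passed the minimum through one line alone but were not called had a median of 26 CpG and 10.9% with at most 5. These values are a description, with no test.

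Interferon-stimulated genes formed the list with the most raised members. Of 65 genes written in the list 60 were tested, and 22 were raised (36.7%, beside 4.88% of all autosomal genes) and 0 were lowered in the limma test. Of the 60, 49 were higher in DAC-resistant cells (52.9% of all autosomal genes were), and the median was 0.58. The raised members lay between 1.02 and 3.70 on the log2 scale, and 8 of them had passed the minimum through DAC-resistant cells alone. HERC5, the ligase that attaches ISG15 to proteins, was at 0.437 and 0.575 FPKM in parental and 18.5 and 18.7 FPKM in DAC-resistant cells (3.70 ± 0.08 (SE), adjusted p = 2.4e-07). IFIT2, which binds viral RNA and restricts its translation, was at 1.57 and 1.43 FPKM in parental and 26.9 and 27.1 FPKM in DAC-resistant cells (3.48 ± 0.04 (SE), adjusted p = 1.9e-08). IFI44 was at 0.6499 and 0.825 FPKM in parental and 15.2 and 16.7 FPKM in DAC-resistant cells, IFI27 at 0.304 and 0.382 FPKM in parental and 6.95 and 6.54 FPKM in DAC-resistant cells, and ISG15, the ubiquitin-like modifier itself, at 4.33 and 3.39 FPKM in parental and 26.8 and 25.2 FPKM in DAC-resistant cells. By their means these 5 genes were between 6.74 and 36.8 times as high in DAC-resistant as in parental cells.

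The increase did not take in the whole list. MX1, a GTPase that blocks the replication of RNA viruses, stayed under the minimum, at 0.279 and 0.286 FPKM in parental and 0.115 and 0.126 FPKM in DAC-resistant cells (-0.20 ± 0.06 (SE), adjusted p = 0.074 in the fit without a minimum). In the promoter window of 300 bases, 17 of the 22 raised members (77.3%) held this core motif on either strand, as did 22 of the 38 other tested members (57.9%) and 3.27% of all 19110 autosomal protein-coding promoters. CXCL11, which is outside this list, had no match in the window. The median was 4.5 CpG in the promoters of raised members and 15 in those of the others.

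RIGI (RIG-I), the sensor of short double-stranded RNA, was under the minimum in both lines, at 0.1799 and 0.0893 FPKM in parental and 0.199 and 0.215 FPKM in DAC-resistant cells, and the difference of 0.09 did not pass the test (adjusted p = 0.54, limma without a minimum). TLR3, the endosomal sensor, was at 0.0375 and 0.103 FPKM in parental cells and was listed at 0 in both DAC-resistant libraries (adjusted p = 0.13, limma without a minimum). IFIH1 (MDA5), which senses long double-stranded RNA, was at 8.88 and 9.11 FPKM in parental and 13.5 and 13.5 FPKM in DAC-resistant cells, a difference of 0.54 ± 0.04 (SE), adjusted p = 2.2e-05, which is past the p but not the fold needed for a call. In the list of 14 tested genes for sensing RNA and DNA, 1 was raised and 1 was lowered. IFI16, a nuclear DNA sensor, went from 7.99 and 7.53 FPKM to 18.5 and 18.04 FPKM, and STING1, the adaptor of cytosolic DNA sensing, from 56.1 and 56.9 to 25.3 and 25.1 FPKM (-1.14 ± 0.03 (SE), adjusted p = 3.0e-07). Of 24 tested interferon receptors, JAKs, STATs and IRFs, 2 were raised and 0 were lowered in the limma test. The raised ones were IRF4, a lymphoid and dendritic cell factor (parental cells had 0.402 and 0.572 FPKM and DAC-resistant cells 3.23 and 3.39 FPKM), and IRF7, the factor that amplifies type I interferon (parental cells had 3.74 and 3.43 FPKM and DAC-resistant cells 8.33 and 8.51 FPKM). IRF4 had passed the minimum through DAC-resistant cells alone and so had to differ.

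Of 20 cytokines and chemokines tested 7 were raised (35%, beside 4.88% of all autosomal genes) and 1 was lowered, with a median of 0.53, and 2 of these 8 had passed the minimum through one line alone. TNF, the inflammatory cytokine of macrophages, was at 8.18 and 7.94 FPKM in parental and 35.3 and 35.01 FPKM in DAC-resistant cells (2.00 ± 0.04 (SE), adjusted p = 9.1e-08). CCL2, which recruits monocytes, was lowered from 3.48 and 3.603 FPKM to 0.447 and 0.268 FPKM (-1.75 ± 0.10 (SE), adjusted p = 1.2e-05). The lowered chemokine and the raised CXCL10 and CXCL11 thus went opposite ways. CCL2 and CXCL11 are the 2 that had passed the minimum through one line alone, so these 2 had to differ.

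In HLA class I presentation 3 of 20 tested genes were raised (15%, beside 4.88% of all autosomal genes) and 0 were lowered in the limma test, and the median was 0.14. HLA-E, the ligand of NKG2A, was at 48.3 and 44.9 FPKM in parental and 119 and 114 FPKM in DAC-resistant cells (1.30 ± 0.04 (SE), adjusted p = 6.7e-07). TAP1, the peptide transporter, was at 7.63 and 8.12 FPKM in parental and 17.98 and 17.6 FPKM in DAC-resistant cells. Both lie on the short arm of chromosome 6, a region described below. Class II genes were mostly low, with 7 tested, 0 raised and 1 lowered in the limma test, and the lowered gene HLA-DRB5 shares reads with its close copies. Among checkpoint and immune-evasion genes 3 of 20 were raised and 2 were lowered (15% and 10%, beside 4.88% and 4.71%). The NKG2D ligands MICA (parental cells had 3.23 and 2.58 FPKM and DAC-resistant cells 9.16 and 8.42 FPKM) and MICB (parental cells had 5.51 and 5.25 FPKM and DAC-resistant cells 12.002 and 14.7 FPKM) were raised. LILRB4 and LILRB2, inhibitory receptors of monocytes, were lowered, LILRB4 from 19.7 and 21.8 FPKM to 7.79 and 7.37 FPKM and LILRB2 from 1.72 and 1.41 FPKM to 0.008296 and 0.0784 FPKM. LILRB2 had passed the minimum through parental cells alone and so had to differ.

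Surface receptors of monocytes and macrophages were the list with the most lowered members. Of 24 tested, 11 were lowered (45.8%, beside 4.71% of all autosomal genes) and 1 was raised, and the median was -0.78. Of these 12, 3 had passed the minimum through one line alone. CXCR4, the receptor that keeps leukemia cells in the marrow niche, was at 42.6 and 45.002 FPKM in parental and 6.77 and 9.24 FPKM in DAC-resistant cells (-2.33 ± 0.13 (SE), adjusted p = 7.5e-06). C5AR1, the receptor of complement fragment C5a, was at 4.17 and 3.48 FPKM in parental and 0.246 and 0.202 FPKM in DAC-resistant cells (-1.98 ± 0.09 (SE), adjusted p = 4.4e-06), and CX3CR1, the fractalkine receptor of patrolling monocytes, at 45.1 and 43.02 FPKM in parental and 11.4 and 12.1 FPKM in DAC-resistant cells (-1.82 ± 0.05 (SE), adjusted p = 5.3e-07). The markers TYROBP, ITGAM, LYZ and CD33 fell as well: TYROBP, the adaptor of activating myeloid receptors, was at 96.0 and 89.0 FPKM in parental and 33.9 and 33.2 FPKM in DAC-resistant cells. The one raised member was SIGLEC1, a sialic acid receptor induced by interferon (parental cells had 0.516 and 0.536 FPKM and DAC-resistant cells 2.32 and 2.19 FPKM).

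Toll-like receptors and their adaptors included 6 lowered (26.1%, beside 4.71% of all autosomal genes) and 0 raised members of 23 in the limma test, with a median of -0.44, and 3 of the 6 had passed the minimum through parental cells alone. The largest falls were those of TIRAP, the adaptor that brings MYD88 to the receptor (parental cells had 3.23 and 3.19 FPKM and DAC-resistant cells 0.468 and 0.565 FPKM), of RELB (parental cells had 11.3 and 12.7 FPKM and DAC-resistant cells 3.72 and 3.81 FPKM) and of NFKB1 (parental cells had 10.02 and 10.4 FPKM and DAC-resistant cells 3.36 and 3.56 FPKM), both subunits of NF-κB. Among leukocyte integrins and adhesion molecules 5 of 22 were lowered (22.7%, beside 4.71% of all autosomal genes) and 1 was raised, and 1 of these called members had passed the minimum through one line alone. ITGAL, the alpha chain of LFA-1, was at 30.6 and 30.8 FPKM in parental and 3.63 and 3.76 FPKM in DAC-resistant cells (-2.76 ± 0.05 (SE), adjusted p = 1.2e-07). CD58, the ligand of CD2 on T cells, was at 10.5 and 10.7 FPKM in parental and 3.21 and 3.02 FPKM in DAC-resistant cells, and SELPLG, the selectin ligand PSGL-1, at 16.3 and 15.8 FPKM in parental and 5.08 and 6.49 FPKM in DAC-resistant cells. F11R, a junction molecule, rose from 13.9 and 14.1 FPKM to 29.4 and 30.1 FPKM.

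Granule and cytosolic proteins went both ways. S100A8 and S100A9, the subunits of calprotectin, were lowered, S100A9 from 21.1 and 26.6 FPKM to 3.98 and 3.599 FPKM (-2.37 ± 0.10 (SE), adjusted p = 2.4e-06) and S100A8 from 5.06 and 5.22 FPKM to 0.889 and 0.635 FPKM. LYZ (lysozyme) was at 11.4 and 12.6 FPKM in parental and 3.69 and 4.88 FPKM in DAC-resistant cells, and NCF4, a subunit of the phagocyte oxidase, at 108 and 109.8 FPKM in parental and 42.6 and 39.4 FPKM in DAC-resistant cells. Cathepsin G (CTSG), a protease of the primary granules of immature myeloid cells, was instead raised from 103 and 108 FPKM to 283 and 272 FPKM (1.39 ± 0.04 (SE), adjusted p = 7.4e-07). VIM (vimentin) and the tetraspanin CD9 were raised too, CD9 from 0.0216 and 0.0509 FPKM to 8.69 and 9.14 FPKM (3.26 ± 0.08 (SE), adjusted p = 3.5e-07). Of the 20 granule genes tested 1 was raised (5%) and 3 were lowered (15%), beside 4.88% and 4.71% of all autosomal genes. Of the 16 in the S100 and cytosolic list 3 were raised (18.75%) and 2 were lowered (12.5%). Of these 5, 2 had passed the minimum through one line alone.

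Among 37 tested transcription factors of the blood lineages 5 were raised and 2 were lowered (13.5% and 5.41%, beside 4.88% and 4.71%). EGR1, an immediate-early factor of monocytic differentiation, was at 1.01 and 0.599 FPKM in parental and 8.84 and 6.999 FPKM in DAC-resistant cells (2.31 ± 0.14 (SE), adjusted p = 1.5e-05). JUN was at 9.44 and 9.09 FPKM in parental and 32.3 and 30.5 FPKM in DAC-resistant cells. NFE2, a factor of megakaryocytes and erythroid cells, fell from 12.9 and 12.8 FPKM to 2.06 and 1.48 FPKM (-2.33 ± 0.09 (SE), adjusted p = 2.3e-06), and RUNX2 from 12.8 and 12.7 to 4.51 and 5.17 FPKM. HOX genes and partners, which leukemias with a KMT2A fusion such as THP-1 express, made up a list of 23 tested genes. In it 1 was raised (4.35%, near 4.88%) and 3 were lowered (13.0%, beside 4.71%). Of the 3 lowered genes, 2 had passed the minimum through parental cells alone and so had to differ. FLT3, a growth factor receptor of progenitors, was at 10.6 and 12.5 FPKM in parental and 26.6 and 24.8 FPKM in DAC-resistant cells, and KIT, the stem cell factor receptor, at 4.52 and 5.58 FPKM in parental and 1.504 and 1.61 FPKM in DAC-resistant cells.

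Some germline genes, a class that DNA methylation keeps silent in somatic cells, were raised. Of 61 autosomal genes in the list 22 passed the minimum, 8 of them were raised (36.4%, beside 4.88% of all autosomal genes) and 0 were lowered in the limma test. Of the 8, 6 had passed through DAC-resistant cells alone and so had to differ, so that the share is a description. BRDT, a testis bromodomain protein, was at 0.0136 and 0.00712 FPKM in parental and 15.5 and 15.7 FPKM in DAC-resistant cells (4.04 ± 0.05 (SE), adjusted p = 2.4e-08). The other 39 autosomal genes of the list had at least 1 FPKM in fewer than 2 of the 4 libraries. Of 52 clustered protocadherins 6 were tested and 0 were called in either direction in limma. Their most abundant member, PCDHGC3, was at 8.64 and 8.64 FPKM in parental and 6.76 and 7.26 FPKM in DAC-resistant cells. Of 15 imprinted genes 1 was raised, PEG10 (parental cells had 0.0141 and 0.0148 FPKM and DAC-resistant cells 2.01 and 2.09 FPKM), and 1 was lowered, GNAS (parental cells had 31.5 and 31.1 FPKM and DAC-resistant cells 13.2 and 13.2 FPKM). PEG10 had passed the minimum through DAC-resistant cells alone and so had to differ.

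Of 10 gene families looked at by symbol after the values had been seen, the AKR1C, metallothionein, MS4A and ZNF genes are given here. All 3 tested AKR1C genes were raised (100%, beside 4.88% of all autosomal genes), though the copies are so alike that reads may be shared among them. AKR1C2 had passed the minimum through DAC-resistant cells alone and so had to differ. AKR1C3 went from 1.28 and 1.46 FPKM to 34.6 and 32.7 FPKM (3.87 ± 0.07 (SE), adjusted p = 7.4e-08). All 4 tested metallothionein genes of the MT1 and MT2 type, which bind zinc and copper, were raised as well (100%, beside 4.88%). MT2A was at 2.52 and 2.45 FPKM in parental and 21.5 and 17.5 FPKM in DAC-resistant cells (2.55 ± 0.10 (SE), adjusted p = 2.0e-06) and MT1X at 2.14 and 1.53 FPKM in parental and 12.1 and 12.04 FPKM in DAC-resistant cells (2.22 ± 0.10 (SE), adjusted p = 3.8e-06). Of 5 MS4A genes 4 were lowered (80%, beside 4.71% of all autosomal genes) and 0 were raised in the limma test. As these families were picked after the values had been seen, their shares are a description. Of 365 ZNF zinc finger genes 18 (4.93%) were raised and 9 (2.47%) were lowered, close to the background upward.

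Of 22 genes tested for uptake, activation and inactivation of DAC 1 was raised and 1 was lowered (4.55% each, near the 4.88% and 4.71% of all autosomal genes), and the median was 0.02, which turns negative with quantile or upper-quartile scaling. DCK was at 27.5 and 26.5 FPKM in parental and 23.2 and 23.9 FPKM in DAC-resistant cells, a difference of -0.19 ± 0.05 (SE), adjusted p = 0.0091 in which the lines did not overlap but which missed the fold for a call. SLC29A1, the nucleoside transporter ENT1, was at 22.7 and 23.1 FPKM in parental and 44.6 and 43.6 FPKM in DAC-resistant cells (0.92 ± 0.03 (SE), adjusted p = 8.3e-07). CDA was lowered from 2.35 and 2.17 FPKM to 0.2705 and 0.568 FPKM (-1.21 ± 0.17 (SE), adjusted p = 7.0e-04), but it had passed the minimum through parental cells alone and so had to differ. SLC29A1 lies at 44 Mb of chromosome 6, in a stretch described below where most genes were higher. CMPK2, the raised member, is a mitochondrial nucleotide kinase that interferon also induces (parental cells had 2.91 and 2.97 FPKM and DAC-resistant cells 9.29 and 8.81 FPKM).

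Of 20 enzymes that write and remove DNA methylation 0 were raised and 1 was lowered in the limma test (5%, near the 4.71% of all autosomal genes), with differences between -1.10 and 0.84 and a median of -0.12. The lowered gene was GADD45A, a stress protein with a part in demethylation and a p53 target (parental cells had 15.1 and 14.5 FPKM and DAC-resistant cells 6.52 and 6.24 FPKM). DNMT1, the maintenance methyltransferase and main target of DAC, was looked up after the lists had been tested and was at 21.9 and 22.2 FPKM in parental and 23.2 and 23.1 FPKM in DAC-resistant cells, a difference of 0.07. Of 42 histone-based silencers 3 were raised and 2 were lowered (7.14% and 4.76%, near the 4.88% and 4.71% of all autosomal genes). CHD3, a remodeller of the NuRD complex, was at 30.2 and 30.96 FPKM in parental and 8.78 and 9.32 FPKM in DAC-resistant cells (-1.65 ± 0.04 (SE), adjusted p = 4.2e-07) and HDAC9 at 8.298 and 8.24 FPKM in parental and 2.63 and 2.82 FPKM in DAC-resistant cells. JARID2, which guides the Polycomb complex PRC2, rose from 6.96 and 7.003 FPKM to 19.1 and 20.2 FPKM (1.37 ± 0.05 (SE), adjusted p = 1.9e-06).

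Drug efflux and detoxification genes were called in different shares. Among 17 ABC transporters, where 1 gene is 5.88%, 1 was raised (ABCF1, 8.22 and 8.81 FPKM in parental and 20.2 and 20.2 FPKM in DAC-resistant cells, a translation factor of the family that spans no membrane) and 1 was lowered (ABCC6, 3.35 and 2.84 FPKM in parental and 1.07 and 0.857 FPKM in DAC-resistant cells). Among 35 NRF2 targets 0 were raised and 1 was lowered in the limma test. The aldo-keto reductases and aldehyde dehydrogenases had 5 raised (26.3%, beside 4.88% of all autosomal genes) and 0 lowered of 19 in the limma test, but 4 of the 5 had passed the minimum through DAC-resistant cells alone and so had to differ. With AKR1C2 and AKR1C3 above, ALDH1A1, which makes retinoic acid from retinal, was at 0.0222 and 0.209 FPKM in parental and 1.93 and 1.91 FPKM in DAC-resistant cells (1.39 ± 0.12 (SE), adjusted p = 6.2e-05). Around retinoic acid, CYP26B1, the enzyme that degrades it, fell from 1.91 and 1.83 FPKM to 0.00655 and 0.0137 FPKM (-1.51 ± 0.10 (SE), adjusted p = 2.1e-05), and the receptor partner RXRA rose from 10.4 and 10.7 to 29.1 and 28.3 FPKM (1.37 ± 0.04 (SE), adjusted p = 6.8e-07). RARA, the retinoic acid receptor alpha, was at 5.84 and 6.05 FPKM in parental and 8.83 and 8.599 FPKM in DAC-resistant cells, a difference of 0.48 ± 0.06 (SE), adjusted p = 3.2e-04, under the fold for a call. Of the 12 retinoid genes tested 2 were raised and 1 was lowered, but ALDH1A1 and CYP26B1 had passed the minimum through one line alone and so had to differ.

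Of 33 genes of the ATF4 response to amino acid stress 4 were raised (12.1%, beside 4.88% of all autosomal genes) and 0 were lowered in the limma test, 26 were higher (52.9% of all autosomal genes were), and the median was 0.42. CHAC1, which degrades glutathione, was at 14.3 and 15.2 FPKM in parental and 41.3 and 39.8 FPKM in DAC-resistant cells (1.40 ± 0.05 (SE), adjusted p = 1.2e-06). Of 36 aminoacyl-tRNA synthetases 27 were higher and 1 was raised, CARS1 for cysteine (parental cells had 9.74 and 10.2 FPKM and DAC-resistant cells 21.8 and 22.6 FPKM). SLC38A1, a glutamine transporter placed in the serine and folate list, was at 51.8 and 51.3 FPKM in parental and 109.5 and 111 FPKM in DAC-resistant cells (1.08 ± 0.02 (SE), adjusted p = 1.9e-07), and it was the only raised one of 21 there. TFRC, the transferrin receptor for iron uptake, was at 13.5 and 13.7 FPKM in parental and 70.5 and 70.7 FPKM in DAC-resistant cells (2.29 ± 0.03 (SE), adjusted p = 1.7e-08).

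The hexokinases of glycolysis went different ways. HK3, the myeloid isoform, fell from 5.82 and 5.53 FPKM to 0.384 and 0.171 FPKM (-2.39 ± 0.14 (SE), adjusted p = 9.6e-06), while HK1 rose from 8.19 and 7.93 to 25.6 and 24.8 FPKM (1.53 ± 0.05 (SE), adjusted p = 8.8e-07) and HK2 from 3.64 and 3.61 to 9.54 and 9.67 FPKM (1.20 ± 0.07 (SE), adjusted p = 9.4e-06). LDHB, a subunit of lactate dehydrogenase, was lowered from 42.95 and 47.7 to 21.8 and 21.5 FPKM. Of 31 glycolytic genes 3 were raised and 2 were lowered (9.68% and 6.45%, beside 4.88% and 4.71%), with a median of -0.07. Of the lowered ones, HK3 had passed the minimum through parental cells alone and so had to differ. In cholesterol synthesis 1 of 30 was raised, LSS or lanosterol synthase (parental cells had 15.7 and 15.99 FPKM and DAC-resistant cells 42.1 and 40.6 FPKM), and 24 were higher. Nuclear genes of the respiratory chain had 0 calls of 50 in the limma test and a median of 0.09, which was 0.17 with TPM and 0.00198 with upper-quartile scaling. The 73 cytosolic ribosomal protein genes had 0 calls too, but 10 were higher and the median was -0.25. RPS27 was at 1292 and 1317 FPKM in parental and 1044 and 1017 FPKM in DAC-resistant cells.

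Among cell cycle genes, 31 of 44 for DNA replication (median 0.15, and 0.06 with upper-quartile scaling) and 33 of 41 for mitosis (median 0.22, and 0.12 with quantile scaling) were higher in DAC-resistant cells, beside 52.9% of all autosomal genes. Of 25 cyclins, CDKs and their inhibitors 2 were raised and 1 was lowered (8% and 4%, beside 4.88% and 4.71%), 2 of these 3 having passed the minimum through one line alone, with a median of 0.06 that turns negative with quantile or upper-quartile scaling. Of the 44 for replication 1 was raised, geminin (GMNN, 7.22 and 6.97 FPKM in parental and 17.4 and 16.3 FPKM in DAC-resistant cells), and of the 41 for mitosis 1 was raised, BIRC5 or survivin (parental cells had 23.96 and 22.98 FPKM and DAC-resistant cells 48.9 and 47.8 FPKM). Of 44 DNA repair genes 0 were called in the limma test. TYMS, thymidylate synthase, fell from 35.4 and 35.5 FPKM to 17.8 and 16.5 FPKM, and RRM2, a subunit of ribonucleotide reductase, rose from 6.92 and 6.65 to 14.7 and 14.9 FPKM, both by little more than the fold for a call.

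In the family of BCL2 proteins and caspases 4 of 29 were raised and 3 were lowered (13.8% and 10.3%, beside 4.88% and 4.71%). Of these 7, 2 had passed the minimum through one line alone. BCL2L11 (BIM), which promotes apoptosis, was at 7.31 and 7.6997 FPKM in parental and 22.4 and 23.8 FPKM in DAC-resistant cells (1.505 ± 0.061 (SE), adjusted p = 2.2e-06), and BIK, of the same class, at 20.7 and 21.7 FPKM in parental and 8.26 and 6.23 FPKM in DAC-resistant cells (-1.44 ± 0.14 (SE), adjusted p = 1.3e-04). The inhibitors CFLAR (parental cells had 7.74 and 7.501 FPKM and DAC-resistant cells 3.04 and 3.14 FPKM) and BIRC3 (parental cells had 2.63 and 2.46 FPKM and DAC-resistant cells 0.619 and 0.752 FPKM) were lowered, while BIRC5, an inhibitor of apoptosis described above with mitosis, was raised. Of 24 p53 targets 1 was raised and 1 was lowered (4.17% each, near 4.88% and 4.71%), with a median of -0.14. The raised one, PHLDA3, had passed the minimum through DAC-resistant cells alone and so had to differ. In the RAS-ERK pathway 3 of 28 were raised and 2 were lowered (10.7% and 7.14%), but 3 of these 5 (ETV4, IER3 and DUSP4) had passed the minimum through one line alone and so had to differ. ETV4, an ETS factor downstream of ERK (parental cells had 0.144 and 0.0657 FPKM and DAC-resistant cells 2.87 and 2.72 FPKM), was raised, and DUSP4, a phosphatase that limits ERK (parental cells had 1.75 and 1.73 FPKM and DAC-resistant cells 0.427 and 0.224 FPKM), was lowered. The Wnt, Notch and TGF-beta list had 4 raised (12.1%) and 3 lowered (9.09%) of 33, but 6 of these 7 had passed the minimum through one line alone and so had to differ. Its LEF and TCF factors went opposite ways, TCF7 from 0.112 and 0.118 FPKM to 1.94 and 1.72 FPKM and LEF1 from 1.42 and 1.04 FPKM to 0.0295 and 0.0186 FPKM. FZD4, a Wnt receptor, was at 0.657 and 0.696 FPKM in parental and 7.304 and 7.49 FPKM in DAC-resistant cells (2.32 ± 0.08 (SE), adjusted p = 1.1e-06).

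Markers of cells other than monocytes were mostly below the minimum: 1 of 27 for T and NK cells, 6 of 33 for B and plasma cells and 7 of 27 for fibroblasts, endothelium and epithelium were tested. In the last group 3 were raised and 1 was lowered, and 3 of these 4 had passed the minimum through one line alone. COL1A1, a chain of collagen I, was at 0.693 and 0.641 FPKM in parental and 6.14 and 6.12 FPKM in DAC-resistant cells (2.097 ± 0.070 (SE), adjusted p = 1.0e-06). LUM, the matrix proteoglycan lumican, was listed at 0 in both parental libraries and at 3.796 and 3.72 FPKM in DAC-resistant cells, at least 103-fold higher when 3 reads per library are taken as the floor. ACTA2, smooth muscle actin, was at 1.6001 and 1.53 FPKM in parental and 0.0106 and 0 FPKM in DAC-resistant cells. Whether other cells took part in these values was not tested.

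Raised and lowered genes lay close together on some stretches of the autosomes. The first 60 Mb of chromosome 6 held 377 of the 12960 genes tested (2.91%) and 75 of the 633 raised genes (11.8%). In the first 30 Mb 37 of 118 genes were raised (31.4%) and 1 was lowered. Among the 52 genes there with a mean of at least 5 FPKM the median difference was 0.97 (quartiles 0.66 and 1.24), and the median ratio of DAC-resistant to parental FPKM was 2.18. Of these 52, 47 were higher in DAC-resistant cells with no overlap of the libraries, beside 50.8% of all 6853 such autosomal genes, whose median was 0.08. The shift stepped down along the chromosome: the median was 0.53 between 30 and 60 Mb (175 genes) and 0.05 after 60 Mb (152 genes). DNA copy number was not measured here, and whether it differs between the lines was not tested.

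Many genes named above lie in that stretch. Of the 16 named genes in the first 60 Mb of chromosome 6, 13 were raised and 2 were lowered. They take in HLA-E, TAP1, TNF, MICA, MICB, IER3, the histone genes H1-2 and H2AC6, IRF4, JARID2, E2F3, GMNN and ABCF1. The other 3 are SLC29A1, which was not called, and the lowered HLA-DRB5 and RUNX2. In the list of HLA class I presentation the 9 members on this stretch had a median of 0.75 and the members elsewhere one of -0.03. For canonical histone genes 2 of 14 were raised (14.3%, beside 4.88% of all autosomal genes), but both had passed the minimum through DAC-resistant cells alone and so had to differ, and the medians were 0.62 for 7 genes on the stretch and 0.25 elsewhere. H1-2, a linker histone, was at 0.8197 and 0.947 FPKM in parental and 4.204 and 4.096 FPKM in DAC-resistant cells.

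Other stretches shifted too. Between 40 and 50 Mb of chromosome 1, where COL9A2 lies, 17 of 115 genes were lowered (14.8%) and the median of 67 genes with at least 5 FPKM was -0.35. Between 20 and 40 Mb of chromosome 12, 13 of 65 genes were lowered (20%), LDHB among them, and 0 were raised in the limma test, and the median of 32 genes with at least 5 FPKM was -0.71, with a median ratio of 0.591. The rest of chromosome 12 had a median of 0.08, but it was not even. Between 40 and 50 Mb, where SLC38A1 lies, the median was 0.43 (23 genes) and 1 of 56 genes was raised. At the end of the long arm of chromosome 1, from 210 to 250 Mb, the median was -0.37 (115 genes) and 24 of 194 genes were lowered, while between 160 and 170 Mb, where F11R lies, it was 0.56 (49 genes). The first 10 Mb of chromosome 20, with SIGLEC1, had a median of 0.59 (42 genes), and the part of chromosome 21 after 40 Mb, with COL6A2 and LSS, had one of 0.63 (22 genes) with 13 of 55 genes raised. In the 10 Mb window of chromosome 11 that holds TIRAP, 13 of 45 genes were lowered (28.9%) and 1 was raised. The median there was -0.24 (22 genes). In the 10 Mb window of chromosome 13 that holds GPC6, 7 of 23 genes were raised (30.4%) and 3 were lowered. Its median was 0.58 (10 genes). These stretches were picked after the windows had been seen, and not every shifted window is listed.

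The 4 libraries with DAC give the same contrast in samples that took no part in the selection. There 739 autosomal genes (5.7%) were raised and 824 (6.36%) were lowered in DAC-resistant against parental cells. Of the 633 genes raised in DMSO, 543 were also higher with DAC and 300 were called raised again, and of the 611 lowered genes 563 were lower and 301 were called lowered again. In the opposite direction, 35 raised genes were called lowered with DAC and 1 lowered gene was called raised. The share of all autosomal genes that were higher or lower with DAC was not counted. Among autosomal genes with a mean of at least 5 FPKM the median with DAC was 0.06. The libraries come from the same 2 lines, and DAC called only 25 autosomal genes in resistant cells. These counts are therefore not an independent test of the line difference. The positional shifts recurred: the median with DAC was 0.91 in the first 30 Mb of chromosome 6, -0.50 between 20 and 40 Mb of chromosome 12 and 0.70 in the first 10 Mb of chromosome 20, and it was lower, 0.26, after 40 Mb of chromosome 21.

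DAC itself moved few genes in resistant cells. Among autosomal genes 25 were called for DAC against DMSO there, 7 of the 633 raised genes and 2 of the 611 lowered genes included. The raised genes of the resistant line can be read with and without drug: CXCL11 was at 75.1 and 80.1 FPKM, OTP at 42.4 and 40.03 FPKM and LIN28B at 21.8 and 22.99 FPKM in DAC-resistant cells with DAC. In parental cells with DAC the same genes were at 10.1 and 9.44, at 3.52 and 3.62 and at 2.44 and 2.41 FPKM, between the parental level in DMSO and that of the resistant line. SPARC reached 29.6 and 29.2 FPKM in parental cells with DAC, above the resistant line. Of the 128 raised genes that were under 0.1 FPKM in both parental DMSO libraries, 47 (36.7%) were at 1 FPKM or more in both parental DAC libraries. The level in DMSO chose these genes, so that this share is a description.

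For interferon-stimulated genes the difference between the lines turned over with DAC. Of the 22 members raised in DMSO, 17 were called lowered and 0 were called raised in limma with DAC, 1 was higher, and the change of the line difference with DAC was called for all 22 (8.59% of all autosomal genes). These 22 were chosen by the DMSO values that this change also uses, so that the count is a description. Over all 60 tested members, 45 were called lowered (6.36% of all autosomal genes were) and 0 raised in limma with DAC, with a median of -1.87. The median level of the 22 chosen members was 1.63 FPKM in parental and 11.5 FPKM in DAC-resistant cells with DMSO, and 51.4 FPKM in parental and 9.80 FPKM in DAC-resistant cells with DAC. ISG15 was at 202 and 211 FPKM in parental and 19.2 and 15.7 FPKM in DAC-resistant cells with DAC, and IFI27 at 184 and 196 FPKM in parental and 5.304 and 4.87 FPKM in DAC-resistant cells. HERC5 and IFIT2 did not part in this way: HERC5 was at 12.4 and 14.9 FPKM in parental and 13.3 and 13.2 FPKM in DAC-resistant cells with DAC, and IFIT2 at 26.6 and 27.7 FPKM in parental and 21.7 and 22.2 FPKM in DAC-resistant cells. Monocyte genes that were lowered in DMSO went both ways. S100A9 and CXCR4 parted further: S100A9 was at 619 and 600.5 FPKM in parental and 4.37 and 4.56 FPKM in DAC-resistant cells with DAC, and CXCR4 at 168 and 162 FPKM in parental and 6.47 and 5.501 FPKM in DAC-resistant cells. ITGAL came closer, with a difference of -2.76 in DMSO and -1.74 with DAC. CX3CR1, for which the change did not reach a call, was at 25.4 and 23.5 FPKM in parental and 11.6 and 11.9 FPKM in DAC-resistant cells with DAC.

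**Figure D1:**
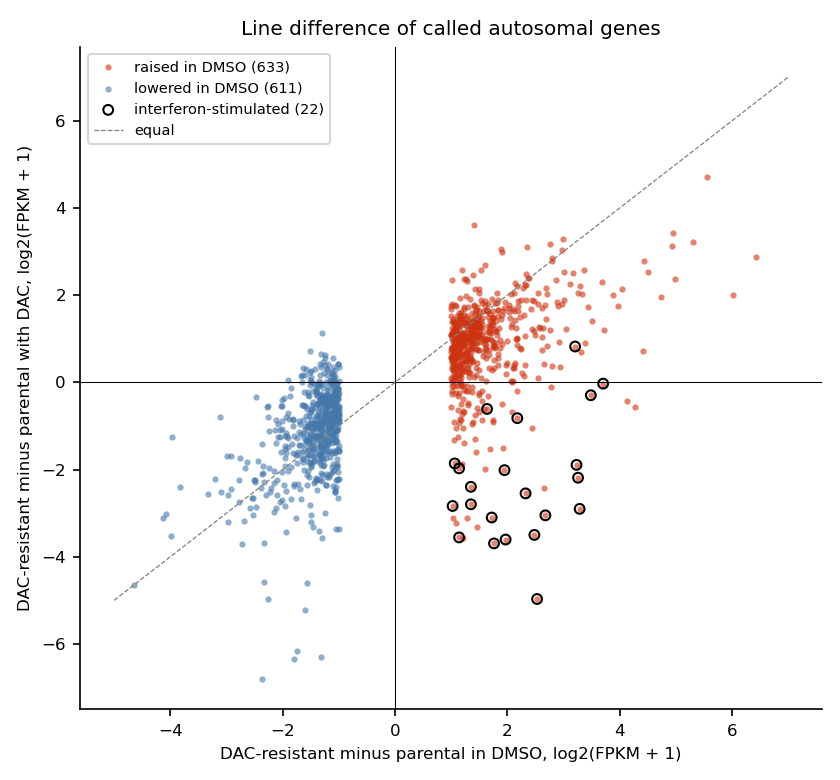
Difference of log2(FPKM + 1) between DAC-resistant and parental cells in DMSO (x axis) and with DAC (y axis) for the 633 raised and 611 lowered autosomal genes, with 1 point per gene and the dashed line marking equal differences. The 22 raised interferon-stimulated genes are ringed, and all but 1 of them lie below 0 on the y axis.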

How the data were processed

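RNA of 8 THP-1 libraries was sequenced after library preparation with an mRNA kit. The authors deposited FPKM values multiplied by 1000, which were divided by 1000. The submitters' processing notes name FastQC, cutadapt 1.9.1, HISAT2 2.1.0, SAMtools 1.6, HTSeq 0.13.5 and hg38. Whether counting used strand was not given in the sources used here. Values of 1264 repeat families were not used. With gene lengths from GENCODE 44, 87.1% of the values of parental DMSO replicate 1 came out as whole reads (within 0.02), and recovered reads gave the depth. Read totals rest on this recovery. They came to between 104.3% and 104.7% of the library totals that the deposited values imply with these gene lengths, so they are approximate.

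Log2(FPKM + 1) was fitted with limma 3.58.1 (R 4.3.3) as 4 group means over 8 libraries, with variances moderated along a trend and Benjamini-Hochberg adjustment over 13442 genes. The fit was run on simulated data with a set spread between replicates. That spread was not fitted to these libraries, so the run does not measure the error rate here. Named genes are the 12 largest rises and 12 largest falls among called protein-coding genes, up to 3 rises and 3 falls of each of 47 lists (or its most abundant member), and further genes of sensing, interferon and drug handling. Members and lists were chosen with earlier results of these data known. Sex chromosomes were left out. Replicates differed by more than counting noise. Alternatives were another pseudocount, other minimums, TPM, quantile and upper-quartile scaling, the 4 DMSO libraries alone, a replicate block, adjusted p, leaving out each library and, chosen after seeing the data, voom in limma on recovered reads. Some genes that meet the rule are not reported here.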

Additional observations from a re-analysis of the deposited data

Results flagged for a closer look

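The difference between the lines was compared between DMSO and DAC with an interaction term in limma, and values here are the change of the log2(FPKM + 1) difference from DMSO to DAC. It passed p of at most 0.01 and a size of 1 for 1113 autosomal genes, 59 of them named genes. No explanation was tested for any of them.

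In 12 genes raised in DMSO the difference turned to a fall of at least 1 with DAC: IFI27 (-7.50), IFI44 (-6.19), ISG15 (-5.98), H1-2 (-4.77), SIGLEC1 (-4.32), IRF7 (-4.15), CMPK2 (-3.75), IER3 (-3.59), IFI16 (-3.11), H2AC6 (-3.08), COL6A2 (-2.73) and TAP1 (-2.13).

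Another 30 raised genes had a smaller or opposite difference with DAC. Among secreted, interferon-related and matrix genes these were SPARC (-4.83), CXCL10 (-4.56), IFIT2 (-3.78), HERC5 (-3.73), CXCL11 (-3.55), COL1A1 (-2.06), LUM (-2.04), COL14A1 (-1.80) and TNF (-1.56). Among germline, embryonic and other tissue genes they were NFE4 (-4.02), TUBA3E (-3.71), HORMAD1 (-2.77), DCAF4L1 (-2.62), OTP (-2.09), PPP1R3A (-1.96), BRDT (-1.91) and LIN28B (-1.67). The others were MT2A (-2.45), VIM (-2.41), TFRC (-2.15), JUN (-1.97), EGR1 (-1.92), AKR1C3 (-1.87), ARG2 (-1.73), SDF2L1 (-1.60), GDA (-1.51), BOK (-1.49), HK1 (-1.44), CD9 (-1.22) and MT1E (-1.17).

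For 8 lowered genes the fall was larger with DAC: S100A8 (-4.53), S100A9 (-4.44), CCL2 (-4.41), DUSP4 (-2.31), LYZ (-2.26), CXCR4 (-2.25), NKG7 (-1.45) and NFE2 (-1.36). IFIH1, not called in DMSO, changed by -2.26. The value was positive for G0S2 (2.72), CHAC1 (2.20), LRRC17 (1.30), LIN7A (1.24), CTSG (1.08), RPS27 (1.03), KBTBD11 (1.02) and ITGAL (1.01).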

How the results depend on the processing

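The 633 raised and 611 lowered genes were recounted under other settings. A minimum mean of 5 FPKM left 270 raised and 210 lowered, 779 called under DAC (main count 1563) and 621 with a changed line difference (main count 1113), and fewer genes tested account for this by construction. Rescaling to TPM gave 970 raised genes, and a pseudocount of 0.1 gave 1016 lowered genes and 2425 called under DAC. With voom on recovered reads, chosen after seeing the data, 960 were raised, 1097 were lowered, 2496 were called under DAC and 1743 had a changed line difference. The cause of these shifts with scaling was not tested. Of the 633 raised genes 620 were shared with voom and 629 with TPM, and of the 611 lowered genes 590 and 593 were. TPM moved the median of all autosomal genes to 0.11 and gave 970 raised and 826 lowered, quantile scaling gave 613 and 635, and upper-quartile scaling gave 550 and 714. Leaving out each DMSO library in turn gave between 615 and 643 raised and between 584 and 613 lowered genes. The replicate numbers did not pair the samples, and a fit with the replicate number as a block gave 632 raised and 609 lowered genes, 1567 calls under DAC and 1119 changed line differences. Of 148 named genes tested, 124 kept their call under every alternative in which they were tested (99 of the 148 were tested with the minimum mean of 5 FPKM) and 0 of 2023 values changed sign; 44 values lost the call and 1 gained it. Genes near the fold of 1 are the ones at stake, and low genes are limited by depth: in parental DMSO replicate 1, 3 reads of a gene of 2 kb are 0.0473 FPKM.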
